A study of Mus musculus with 12 samples.

Results

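Atp6v0e, a small membrane subunit of the vacuolar proton pump (V-ATPase), was followed with 9 further pump subunits in skeletal muscle and hypothalamus of congenic and wild type mice. Atp6v0e was selected on its strain difference in muscle, so its muscle values and every contrast built on them are given as a description. The other subunits were chosen as partners of the same pump. All probes named for a subunit in the platform annotation were taken. This gave 8 of 10 subunits with 1 probe each, among 13840 named genes on 33012 probes. Atp6v0b and Atp6v0c, which encode proteolipids of the membrane ring, had no named probe and were not analysed here.

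The animals were male. One strain was B6.CAST-17, in which a chromosome 17 segment of wild-derived CAST origin is homozygous in an inbred B6 genome, and the other was wild type B6. Skeletal muscle and hypothalamus gave 4 groups of 3 arrays. Only the hypothalamus titles call the congenics short, and no age and no bounds of the segment are given. The series concerns physical activity and carbohydrate preference in this strain. Whether a mouse gave both tissues is not stated in the sample labels. Values are log2 array signals, a probe's brightness, and the levels of different probes are not comparable with each other.

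The V-ATPase is a rotary pump that moves protons into lysosomes, endosomes, Golgi cisternae and synaptic vesicles. Its cytosolic part, V1, hydrolyses ATP, and its membrane part, V0, carries the protons. In neurons the proton gradient drives the loading of neurotransmitter into synaptic vesicles, and in muscle the pump serves lysosomes and endosomes. Several subunits exist as paralogues with tissue-biased expression, among them Atp6v0e2 beside Atp6v0e and Atp6v1g2 beside Atp6v1g1.

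Promoter sequences are shown for 3 genes that stand out in the values below. Atp6v0e differed between the strains in muscle, Atp6v0e2 is its paralogue with higher hypothalamus values, and Atp6v1a had the largest tissue difference among the measured members. They are the 250 bases before the annotated start, 5′ to 3′ on the gene's strand, from RefSeq on mouse assembly GRCm38.p6, and are B6 sequence. Atp6v0e lies at chr17:26676146-26676395 (plus strand), Atp6v1a at chr16:44139260-44139509 (minus strand) and Atp6v0e2 at chr6:48537319-48537568 (plus strand). Capitals mark GGGCGG, the GC box, in Atp6v0e, its reverse complement CCGCCC in Atp6v0e2, and CACGTG, the core E-box that TFEB and other factors bind, in Atp6v1a.
Atp6v0e: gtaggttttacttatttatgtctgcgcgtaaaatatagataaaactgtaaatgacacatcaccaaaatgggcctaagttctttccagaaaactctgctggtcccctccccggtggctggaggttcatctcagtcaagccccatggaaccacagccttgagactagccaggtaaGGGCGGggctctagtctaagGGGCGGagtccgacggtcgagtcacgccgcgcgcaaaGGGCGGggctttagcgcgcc
Atp6v1a: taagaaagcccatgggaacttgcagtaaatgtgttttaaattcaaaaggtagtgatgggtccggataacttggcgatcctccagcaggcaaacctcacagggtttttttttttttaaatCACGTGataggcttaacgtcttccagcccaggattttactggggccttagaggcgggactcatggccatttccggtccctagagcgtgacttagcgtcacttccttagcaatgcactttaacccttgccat
Atp6v0e2: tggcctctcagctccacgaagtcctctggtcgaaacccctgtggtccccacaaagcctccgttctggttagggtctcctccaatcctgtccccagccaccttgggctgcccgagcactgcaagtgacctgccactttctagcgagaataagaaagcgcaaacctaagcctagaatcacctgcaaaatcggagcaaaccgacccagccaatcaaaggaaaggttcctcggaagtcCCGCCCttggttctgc

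Windows of this kind were found for 7 of the 10 members and were searched on both strands. CACGTG stood in 2 of these members, Atp6v0b and Atp6v1a, and in 0 of 12 other pump subunits with a window. Of 32851 windows of the same length, 6.02% held it. In Atp6v1a it was part of TCACGTGA, found in 0.785% of windows. GGGCGG stood in 4 members and in 32.7% of windows, with 3 copies in the Atp6v0e window. A gene was counted if any of its windows held the letters, and Atp6v0c had several, while the percentages count single windows. These matches are descriptions of letters, and no binding data were used.

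The tissues matched their labels. The median of 9 measured skeletal muscle genes was 19.92 to 20.15 on muscle arrays and 8.81 to 9.46 on hypothalamus arrays. For 9 measured neuronal genes it was 8.58 to 8.97 in muscle and 15.74 to 16.99 on 5 of the hypothalamus arrays. Wild type hypothalamus array 1 stood apart, with a neuronal median of 12.34. Its Spearman correlations with the remaining hypothalamus arrays were 0.420 to 0.461, where these correlated at 0.775 to 0.853 with each other. Among the members, 7 of 8 lay below the lowest of the other 5 arrays there and 5 lay more than 3 log2 units under their mean. A fall of more than 3 log2 units was found for 1393 (33.4%) of the 4165 probes that averaged over 13 across those 5 arrays. That set does not hold Atp6v1b2, at a mean of 11.49. The share of all probes below the lowest of the other 5 arrays was not computed. The largest gaps were -9.11 for Atp6v1e1, -8.0 for Atp6v0d1 and -7.85 for Atp6v1h, while Atp6v0e lay within the range of the others. Hypothalamus results are therefore given with and without this array.

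Atp6v0e, subunit e of the membrane part V0, was highest in congenic muscle. Its probe read 16.43, 16.42 and 16.38 on the 3 congenic muscle arrays and 14.96, 14.44 and 14.42 on the 3 wild type muscle arrays. Every congenic muscle array lay above every wild type one. The group means were 16.41 ± 0.02 (SD, n = 3) and 14.61 ± 0.31 (SD, n = 3), a difference of 1.80 (SE 0.18), or 3.49-fold. In hypothalamus the probe read 14.05, 13.95 and 12.76 in congenic mice and 13.84, 13.57 and 13.39 in wild type mice. These groups overlapped, with the lowest and the highest value both on congenic arrays.

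**Figure D1:**
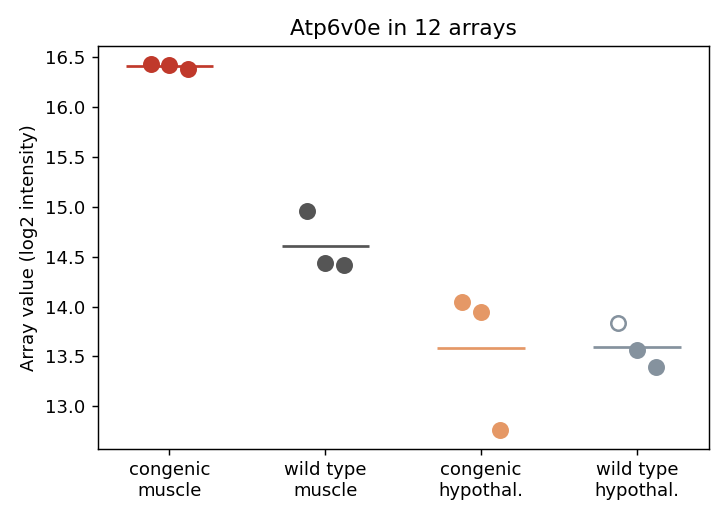
Log2 signal of the Atp6v0e probe on the 12 arrays, by strain and tissue, where each point is an array, each bar the mean of 3 arrays and the open circle wild type hypothalamus array 1. The congenic muscle arrays, at 16.38 to 16.43, lie above the wild type muscle arrays at 14.42 to 14.96, and both hypothalamus groups overlap.

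In order of level, congenic muscle came first, wild type muscle second and the hypothalamus groups last. The hypothalamus means of 13.60 ± 0.23 in wild type and 13.59 ± 0.72 in congenic mice (SD, n = 3) did not differ beyond their spread. Wild type muscle did not overlap either hypothalamus group. These are bulk tissues, in which a change in the number of cells of a type and a change in RNA per cell cannot be told apart. The median of 7 measured macrophage genes was 13.29, 13.35 and 12.39 in congenic muscle and 12.74, 12.40 and 12.68 in wild type muscle, and 6 of these 7 genes had a positive difference. The median of 6 fibroblast genes was 16.50 to 17.36 in congenic and 16.00 to 16.45 in wild type muscle, and that of 4 osteoclast genes, a cell type rich in the pump, was 8.21 to 10.16 and 8.52 to 8.78. Positive differences were found for 5 of 6 fibroblast and 4 of 4 osteoclast genes. The median differences were 0.817 for the macrophage, 0.292 for the fibroblast and 0.406 for the osteoclast genes, beside 0.011 over all probes. Of the osteoclast genes, Calcr, Ocstamp and Dcstamp averaged 8.46 to 9.08 in the muscle groups. That is near the 20th percentile of 8.02, so these may not be above background. Strain groups did not overlap in muscle for the macrophage genes C1qa, C1qb, C1qc and Cd14, and did for Aif1, Mrc1 and Adgre1. Of the fibroblast genes, Col1a1 and Col3a1 did not overlap, and Col1a2, Dcn, Lum and Pdgfra did. All measured osteoclast genes overlapped. Over all probes, 11.9% did not overlap. None of these marker genes passed limma's test. Their part in the Atp6v0e difference was not tested.

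The genes whose values were most like those of Atp6v0e were ranked by Pearson correlation over 11 arrays, each tissue centred on its mean and wild type hypothalamus array 1 left out. The arrays share strain and tissue groups, so the coefficients are descriptions. The first 5 genes were Cldn10, a claudin of tight junctions, at 0.959, Rsph9, a radial spoke protein of cilia, at 0.958, C1qa, a chain of complement C1q made by macrophages and microglia, at 0.952, Ctsh, the lysosomal protease cathepsin H, at 0.936 and Pcolce2, an enhancer of procollagen processing, at 0.916. Of these only Rsph9 lies on chromosome 17. All 5 were higher in congenic than in wild type muscle, as the choice by likeness implies. The differences were 1.08 for Cldn10, 1.60 for Rsph9, 0.99 for C1qa, 0.80 for Ctsh and 0.69 for Pcolce2. C1qa read 16.67, 16.44 and 16.60 in congenic and 15.88, 15.33 and 15.52 in wild type muscle, without overlap. The muscle strain groups of Cldn10, Rsph9, Ctsh and Pcolce2 did not overlap either. The choice by likeness implies this too, and 11.9% of all probes had no overlap.

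Atp6v0e lies on chromosome 17, the chromosome of the congenic segment, and was number 176 of 656 measured genes there in chromosome order. The 5 measured genes on either side had smaller differences in muscle. Their congenic minus wild type differences ran from -0.41 to 0.90. Nearest to Atp6v0e, Ergic1, a cargo receptor between endoplasmic reticulum and Golgi, differed by -0.39 (SE 0.28) and Crebrf, a regulator of the stress factor CREB3, by -0.27 (SE 0.44). Fam234a, 4 genes away, differed by 0.90 (SE 0.23), with 14.79, 14.68 and 15.50 in congenic and 14.04, 14.08 and 14.16 in wild type muscle. Fam234a and Luc7l, a splicing factor at -0.33 (SE 0.25), were the 2 of 10 neighbours whose strain groups did not overlap, which held for 11.9% of all probes. None of the 10 neighbours passed limma's test in muscle (adjusted p from 0.835 to 0.996). In hypothalamus without wild type array 1, Fam234a read 12.01, 11.95 and 11.82 in congenic and 11.41 and 11.45 in wild type mice, a difference of 0.50 (limma adjusted p = 0.9). Whether these genes lie in the segment, and whether CAST sequence differs under a probe, was not tested.

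**Figure D2:**
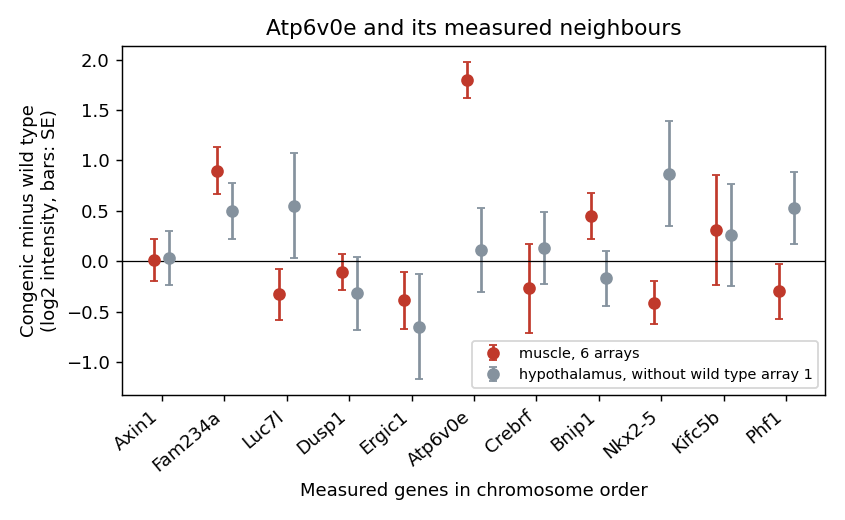
Congenic minus wild type difference (log2) for Atp6v0e and the 5 measured genes on each side in chromosome order, in muscle and in hypothalamus without wild type array 1, where points are fitted differences and bars standard errors. In muscle Atp6v0e stands at 1.80 and the neighbours lie between -0.41 and 0.90, and in hypothalamus Atp6v0e stands at 0.11.

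The other measured subunits are described in muscle beside Atp6v0e, since the same contrast chose it. Over all probes limma called 6 of 33012 at an adjusted p under 0.05 (0.0182%, with 0.00606% higher and 0.0121% lower), and of the 8 measured members Atp6v0e alone was among them. In the central parts of V1, the catalytic subunit A (Atp6v1a) read 7.99, 9.57 and 9.30 in congenic muscle and 7.82, 8.0 and 7.66 in wild type muscle, and differed by 1.12 (SE 0.48). These are dim values, since the 20th percentile of the muscle arrays was 8.02, and congenic array 1 fell among the wild type arrays. The nucleotide-binding subunit B2 (Atp6v1b2) read 13.29, 13.59 and 13.84 in congenic and 13.40, 13.92 and 13.40 in wild type muscle, and differed by -0.002 (SE 0.229). Subunit D (Atp6v1d), part of the rotor, read 15.52, 15.53 and 15.31 in congenic and 15.55, 15.61 and 15.69 in wild type muscle, and differed by -0.16 (SE 0.15). Its groups did not overlap, though the nearest arrays lay only 15.53 against 15.55.

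The remaining subunits showed small differences in muscle. They were 0.01 (SE 0.16) for Atp6v1c1, which joins V1 to V0, 0.06 (SE 0.18) for the stalk subunit Atp6v1e1, 0.23 (SE 0.31) for the regulatory subunit Atp6v1h and 0.23 (SE 0.24) for Atp6v0d1, which couples the rotor to the membrane ring. The groups of these 4 probes overlapped. The median over the 7 measured members other than Atp6v0e was 0.061, beside 0.011 over all probes.

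**Figure D3:**
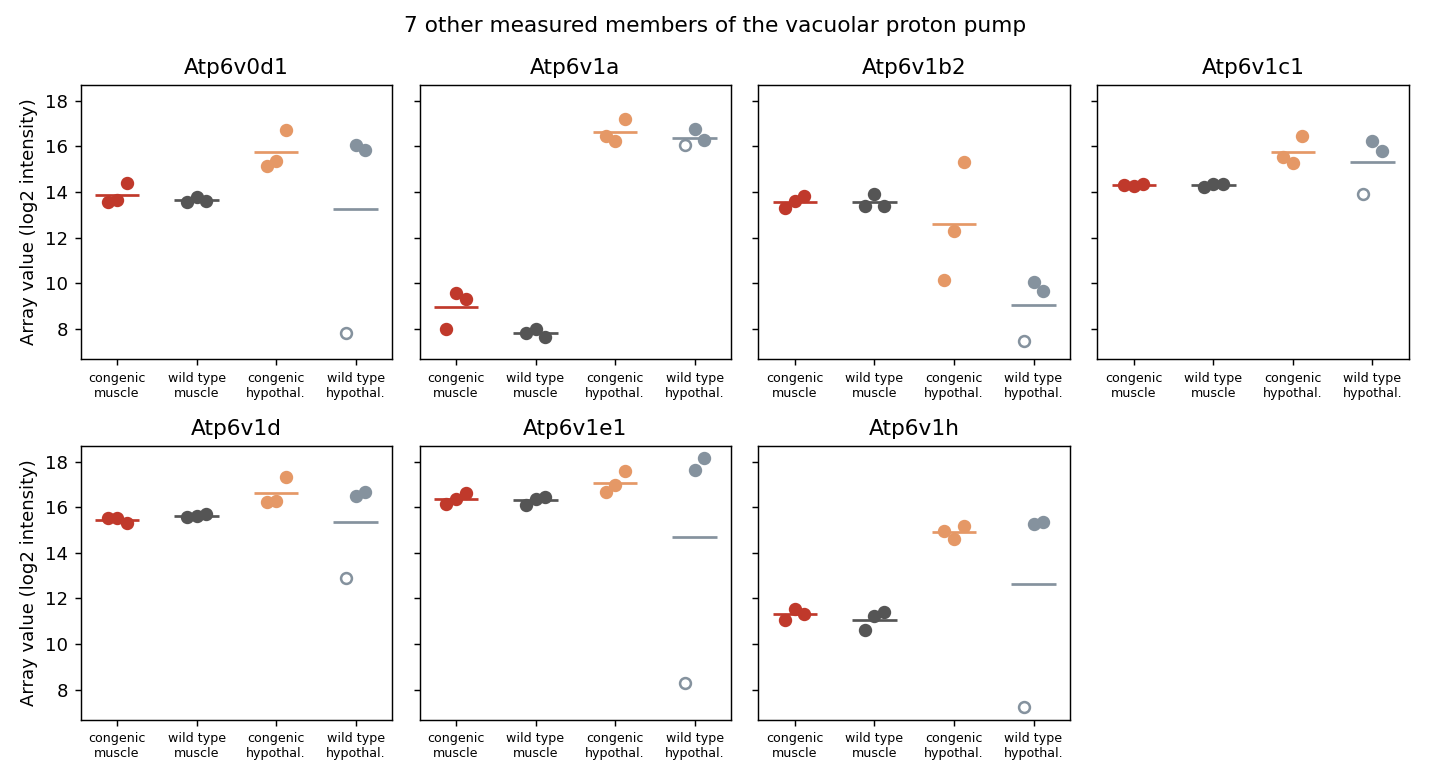
Log2 signal of the 7 measured subunits other than Atp6v0e on every array, by strain and tissue, with each point an array, each bar the mean of 3 arrays and open circles for wild type hypothalamus array 1. Atp6v1a separates the tissues by more than 6 log2 units, and the open circle lies far below the other hypothalamus arrays for Atp6v0d1, Atp6v1e1 and Atp6v1h.

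The strain comparison in hypothalamus used arrays that played no part in the choice of Atp6v0e. No member passed limma's test there, with all 6 arrays or without wild type array 1, and neither did any probe of the array (0%). At an unadjusted p under 0.05 there were 658 probes with all arrays and 1761 without wild type array 1. Atp6v0e differed by -0.009 (SE 0.621; limma adjusted p = 0.998), and by 0.11 (SE 0.42; limma adjusted p = 0.979) without that array. Leaving out congenic array 3, where it was lowest, together with wild type array 1 gave 0.53 (limma adjusted p = 0.243). Of all 33012 probes, 606 were called in that fit.

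Atp6v1b2 gave the largest hypothalamus difference of the members. It read 10.14, 12.29 and 15.30 in congenic mice and 7.48, 10.05 and 9.66 in wild type mice. The groups did not overlap, but the congenic arrays spread over more than 5 log2 units. The difference was 3.51 (SE 1.30; limma adjusted p = 0.936), and 2.72 (SE 1.22; limma adjusted p = 0.9) without wild type array 1. It fell to 1.36 (limma adjusted p = 0.336) when congenic array 3 was left out as well. It was the 1 of 8 members whose strain groups did not overlap on all 6 arrays, beside 9.16% of all probes.

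Congenic hypothalamus array 3 was the highest of its group for 7 of 8 members, all but Atp6v0e, and for 1661 of the 3847 probes with a mean above 13 over the 12 arrays (43.2%), a set that does not hold Atp6v1a, Atp6v1b2 or Atp6v1h. The median of 6 measured oligodendrocyte genes had the same order as Atp6v1b2 over these arrays, at 9.76, 10.88 and 12.57 in congenic mice, and was 7.82, 10.01 and 9.80 in wild type mice. Mbp, Cnp and Olig1 had that order over the congenic arrays, and Mog, Mag and Olig2 did not. The median of 6 measured anterior pituitary genes was 15.25, 10.71 and 9.93 on the congenic arrays and 9.49 to 9.82 on the wild type arrays. The part of these cell types in the Atp6v1b2 values was not tested.

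For most other subunits the hypothalamus difference changed when wild type array 1 was left out. Atp6v0d1 read 15.15, 15.35 and 16.73 in congenic and 7.82, 16.05 and 15.86 in wild type mice, and its difference went from 2.50 to -0.21 without that array. Atp6v1e1 read 16.65, 16.98 and 17.58 in congenic and 8.29, 17.64 and 18.15 in wild type mice, and went from 2.38 to -0.82. Atp6v1h read 14.97, 14.60 and 15.16 in congenic and 7.22, 15.26 and 15.35 in wild type mice, and went from 2.31 to -0.39. Each of these 3 changed sign with 1 array.

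Among the rest, Atp6v1c1 went from 0.43 to -0.27, Atp6v1d from 1.27 to 0.05 and Atp6v1a from 0.25 to 0.10. Limma adjusted p-values of the 8 members were 0.936 to 0.998 with all arrays and 0.9 to 0.994 without wild type array 1. Without it 3 of 8 members had strain groups that did not overlap, Atp6v1b2 higher and Atp6v1e1 and Atp6v1h lower, beside 22.6% of all probes. The median over the 8 members was 1.79 with all arrays and -0.079 without that array, beside -0.071 and -0.009 over all probes.

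**Figure D4:**
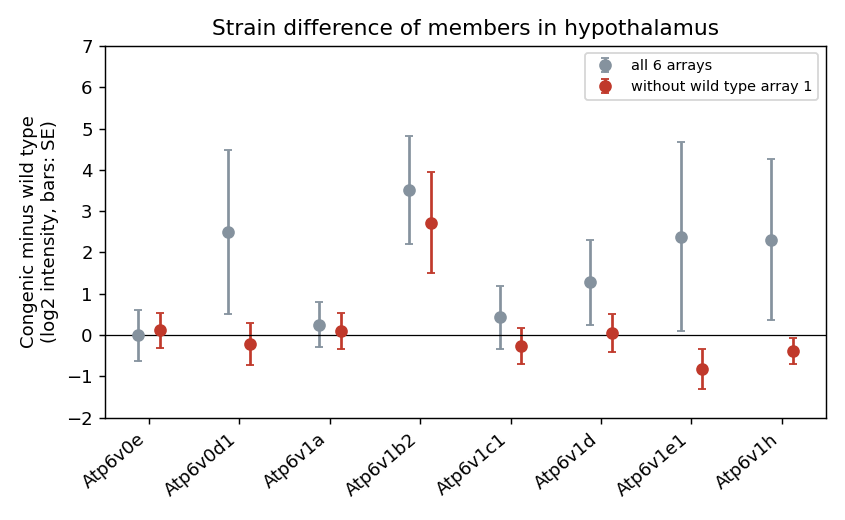
Congenic minus wild type difference (log2) in hypothalamus for the 8 measured subunits, with standard errors, from all 6 arrays and without wild type array 1. Atp6v0d1, Atp6v1e1 and Atp6v1h move from above 2 to below 0 when the array is left out, while Atp6v0e stays near 0.

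The tissues were compared as hypothalamus minus muscle within each strain, in a fit of all 12 arrays and again without wild type hypothalamus array 1. The authors' values have a distribution of their own in each tissue. The median difference over all probes was -0.220 in congenic and -0.147 in wild type mice, and it became -0.042 and 0.029 when the 12 arrays were quantile normalized together. Member differences below are best read against these medians. Atp6v0e was lower in hypothalamus by -2.82 (SE 0.43) in congenic and -1.01 (SE 0.43) in wild type mice, which is a description because its muscle values chose it. With joint quantile normalization these values were -2.21 and -0.51.

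Atp6v1a, the catalytic subunit, was higher in hypothalamus in both strains and in both fits. It read 16.45, 16.24 and 17.19 in congenic and 16.08, 16.75 and 16.29 in wild type hypothalamus, against 7.66 to 9.57 over the 6 muscle arrays. No hypothalamus array came within 6 log2 units of a muscle array. The difference was 7.67 (SE 0.49; limma adjusted p = 2.16e-07) in congenic and 8.55 (SE 0.49; limma adjusted p = 8.58e-08) in wild type mice. The muscle values lie near the 20th percentile of their arrays, so the size of the difference depends on where background lies.

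Atp6v1b2 went the other way in wild type mice, where it fell from 13.57 ± 0.30 in muscle to 9.06 ± 1.39 in hypothalamus (SD, n = 3). The difference was -4.51 (SE 1.01; limma adjusted p = 0.0067), and -3.72 (limma adjusted p = 0.00775) without wild type array 1. In congenic mice the difference was -0.995 (SE 1.01; limma adjusted p = 0.581), with hypothalamus values on both sides of the muscle values. The strain by tissue term of Atp6v1b2 was 3.52 (limma adjusted p = 0.913), and 2.72 (limma adjusted p = 0.737) without wild type array 1, so a difference between the strains was not shown.

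With all 12 arrays, 1 of the 7 members other than Atp6v0e passed in congenic mice, which was Atp6v1a and higher, beside 18.4% of all probes (7.16% higher and 11.3% lower). For wild type mice 1 was higher and 1 lower, beside 19.2% of all probes (7.22% higher and 12% lower). Without wild type hypothalamus array 1, whose spread enters the error of every contrast of this fit, 5 of 7 were higher in congenic mice, beside 31.9% of all probes (12.6% higher and 19.4% lower). In wild type mice 6 were then higher and 1 lower, beside 30.1% of all probes (12.4% higher and 17.7% lower). Groups of arrays that did not overlap were found for 6 of these 7 members in congenic mice, beside 41.6% of all probes. Among wild type arrays they were found for 2 of 7, beside 34.8%, and for 7 of 7 without array 1, beside 57.6%.

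Atp6v1h, which inhibits ATP hydrolysis by V1 released from the membrane, read 14.97, 14.60 and 15.16 in congenic hypothalamus and 11.05, 11.53 and 11.30 in congenic muscle. Its difference of 3.62 passed without wild type array 1 (limma adjusted p = 1.28e-07) and not with it (limma adjusted p = 0.136). Wild type mice gave a difference of 1.54 (limma adjusted p = 0.554) with all arrays and 4.24 (limma adjusted p = 1.01e-07) without array 1. The congenic arrays did not overlap between the tissues, and neither did the wild type arrays once array 1 was left out.

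Atp6v0d1 read 13.55, 13.66 and 14.40 in congenic and 13.54, 13.78 and 13.60 in wild type muscle, below the 5 hypothalamus arrays at 15.15 to 16.73. Its difference in congenic mice was 1.88 (limma adjusted p = 0.49, and 0.00111 without array 1). Wild type mice gave -0.40 (limma adjusted p = 0.899) with all arrays and 2.31 (limma adjusted p = 0.000564) without array 1. The direction in wild type mice thus turned on 1 array.

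Atp6v1c1 and Atp6v1d showed smaller tissue differences. Atp6v1c1 read 14.23 to 14.34 over the 6 muscle arrays, 15.52, 15.26 and 16.47 in congenic hypothalamus and 13.91, 16.25 and 15.79 in wild type hypothalamus. Its difference was 1.44 in congenic mice (limma adjusted p = 0.103, and 0.00147 without array 1) and 1.02 in wild type mice (limma adjusted p = 0.249), or 1.72 (limma adjusted p = 0.000956) without array 1. Atp6v1d read 16.22, 16.29 and 17.34 in congenic and 12.90, 16.47 and 16.67 in wild type hypothalamus. Its difference was 1.16 in congenic mice (limma adjusted p = 0.375, and 0.00675 without array 1) and -0.27 in wild type mice (limma adjusted p = 0.862), or 0.95 (limma adjusted p = 0.0411) without array 1.

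Atp6v1e1 read 16.09 to 16.61 on the muscle arrays. It was the member with the smallest tissue difference in congenic mice, 0.71 (limma adjusted p = 0.852, and 0.0878 without array 1). Wild type mice gave -1.61 (limma adjusted p = 0.605) with all arrays and 1.59 (limma adjusted p = 0.00188) without array 1.

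The strain effects of the members were not shown to differ between the tissues. The strain by tissue term called no probe (0%), with 1198 probes at an unadjusted p under 0.05, or 2224 without wild type array 1. For Atp6v0e the term was -1.81, and -1.69 without that array, given as a description. For the other 7 members limma adjusted p-values were 0.913 to 0.937 with all arrays and 0.737 to 0.936 without that array.

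Of the other subunits of the pump, 13 of 15 listed were measured, and none passed for strain in muscle or in hypothalamus with or without wild type array 1. For tissue, 2 were higher and 1 lower in hypothalamus of congenic mice, beside 18.4% of all probes, and 2 higher and 2 lower in wild type mice, beside 19.2%. Without wild type array 1 these counts were 3 and 3, beside 31.9% of all probes, and 4 and 2, beside 30.1%. With all arrays the number of calls of 13 subunits is near these shares. Without array 1 the higher calls lay above the 12.6% (congenic) and 12.4% (wild type) of all probes called higher. The lower calls were then near the 19.4% and 17.7% called lower. The set was not tested, and the values below describe single subunits.

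Atp6v0e2, the paralogue of Atp6v0e, had tissue differences of the opposite sign. It read 17.79, 17.11 and 18.68 in congenic and 18.16, 18.43 and 18.32 in wild type hypothalamus, all above the muscle arrays at 15.33 to 15.93. The differences were 2.21 (SE 0.45; limma adjusted p = 0.00351) and 2.62 (SE 0.45; limma adjusted p = 0.001). In muscle its strain groups overlapped, with 15.70, 15.33 and 15.93 in congenic and 15.50, 15.70 and 15.86 in wild type mice.

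The G subunits of the peripheral stalk also split by tissue. Atp6v1g2, the form known from neurons, read 16.34 to 18.13 in hypothalamus and 11.89 to 12.60 in muscle. It rose by 4.66 (limma adjusted p = 2.01e-05) in congenic and 4.79 (limma adjusted p = 1.49e-05) in wild type mice. Atp6v1g1, the widely expressed form, read 12.97 to 15.04 in hypothalamus and 17.27 to 17.47 in muscle. It differed by -2.79 (limma adjusted p = 0.00104) in congenic and -3.41 (limma adjusted p = 0.000212) in wild type mice.

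Atp6v1c2, the paralogue of Atp6v1c1, had a bright and a dim probe that disagreed. The bright probe read 17.62 to 18.23 in muscle and was lower in hypothalamus by -5.08 (limma adjusted p = 0.0269) in wild type mice and -2.63 (limma adjusted p = 0.264) in congenic mice. Without wild type array 1, which read 7.90, the wild type difference was -2.73 (limma adjusted p = 0.00622) and that of congenic mice passed (limma adjusted p = 0.0034). The wild type call with array 1 kept was lost under joint quantile normalization (-4.41, limma adjusted p = 0.0652), in a fit of the wild type arrays alone (-5.08, limma adjusted p = 0.118) and without any 1 of the wild type muscle arrays (limma adjusted p up to 0.0762). The dim probe differed by 0.79 and 0.44 and did not pass. Atp6ap2, the accessory subunit also known as the prorenin receptor, differed by 2.29 in congenic mice (limma adjusted p = 0.144, and 0.00152 without array 1). Wild type mice gave 0.11 with all arrays and 1.60 (limma adjusted p = 0.0327) without array 1. Its dimmer probe differed by 2.45 and -0.42.

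The 8 other measured subunits did not pass for tissue with all arrays. Atp6v0a2, a form of the large subunit a that forms the proton channel, read 13.38 to 14.07 in muscle and 13.42 to 15.49 in hypothalamus. It differed by 0.26 in congenic and 0.75 in wild type mice, and passed in wild type mice without array 1 (1.21, limma adjusted p = 0.0252). Tcirg1, the form of subunit a known from osteoclasts, differed by 0.59 and -0.24, and Atp6ap1, an accessory subunit, by 0.28 and -1.21. The probes of Atp6v0a4, Atp6v0d2, Atp6v1b1, Atp6v1e2 and Atp6v1g3, forms known from restricted sets of cells, were dim, at 6.36 to 10.62 over all arrays. Among these Atp6v1e2 differed by -1.12 in congenic mice, which passed without wild type array 1 (limma adjusted p = 0.0323).

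**Figure D5:**
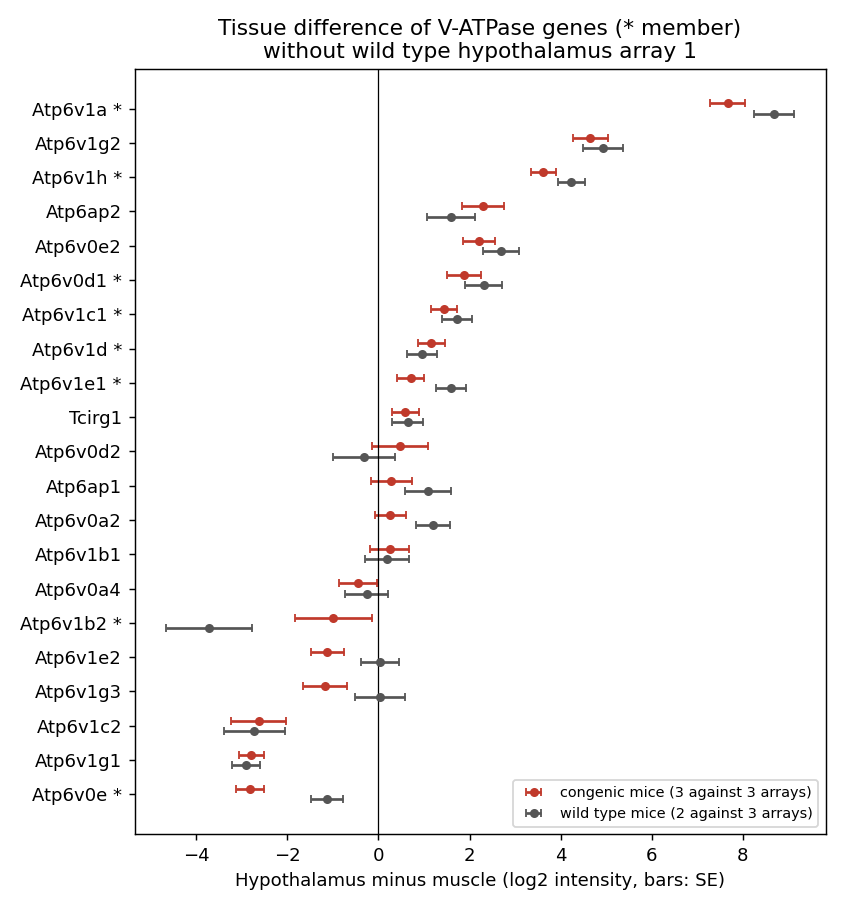
Hypothalamus minus muscle difference (log2) for the 8 measured members, marked with a star, and the 13 other measured subunits, each by its brightest probe, in congenic and wild type mice without wild type hypothalamus array 1. Points are fitted differences and bars standard errors, Atp6v1a stands at 7.67 and 8.69, and Atp6v0e lies below 0 in both strains while Atp6v0e2 lies above it.

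Genes that build or use the pump were counted in the same way. None of the measured genes of these 4 lists passed for strain in either tissue. Of 6 measured assembly factors of 11 listed, 1 passed for tissue in congenic mice, beside 18.4% of all probes, and none in wild type mice, beside 19.2%. That was Ccdc115, an assembly factor of the pump, at -1.38 (limma adjusted p = 0.0438). The call was lost under joint quantile normalization (-1.09, limma adjusted p = 0.139), with equal array medians (-1.24, limma adjusted p = 0.0722) and in 9 of the 12 fits that left out 1 array (limma adjusted p up to 0.128). Without wild type array 1, Rogdi, a subunit of the RAVE-like complex, was higher in hypothalamus by 3.49 (limma adjusted p = 4.2e-06) in congenic and 4.28 (limma adjusted p = 2.12e-06) in wild type mice.

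The pump also takes part in nutrient sensing at the lysosome through Ragulator and the Rag GTPases. Of 11 measured genes of 16 listed for these complexes, mTOR and TFEB, 1 passed in either strain. All probes passed at shares of 18.4% in congenic and 19.2% in wild type mice. The gene was Rragb, a Rag GTPase, which was 4.13 higher in hypothalamus of congenic mice (limma adjusted p = 0.000277). Without wild type array 1, 2 were higher and 4 lower in congenic mice, beside 12.6% and 19.4% of all probes. In wild type mice 2 were higher and 1 lower, beside 12.4% and 17.7%. In congenic mice Lamtor3, a Ragulator subunit, then passed at -1.05 (limma adjusted p = 0.00574) and Mtor, the kinase recruited by the Rag GTPases, at -1.44 (limma adjusted p = 0.00903). The Mtor values, 8.68 to 8.96 in congenic muscle and 6.96 to 8.04 in congenic hypothalamus, lie near the 20th percentiles of 8.02 and 7.87, so they may not be above background. Of 16 measured lysosomal genes of 21 listed, none passed with all arrays, beside the same 18.4% and 19.2% of all probes. Without wild type array 1 there were 1 higher and 5 lower in congenic mice, beside 12.6% and 19.4%. Wild type mice then gave 2 higher and 1 lower, beside 12.4% and 17.7%. Ctsl, the lysosomal protease cathepsin L, differed by -1.49 in congenic mice (limma adjusted p = 0.0732, and 0.000169 without array 1). Gaa, the lysosomal acid glucosidase, differed by 2.49 (limma adjusted p = 0.457, and 0.00083 without array 1).

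Many genes of synaptic vesicles, whose loading depends on the pump, were higher in hypothalamus. Of 14 measured of 15 listed, 9 were higher and 1 lower in congenic mice, beside 7.16% and 11.3% of all probes. In wild type mice 7 were higher and none lower, beside 7.22% and 12%. The lower gene was Vamp2, a vesicle fusion protein, by its brightest probe (-1.48, limma adjusted p = 0.0252), while its other probe was called higher (3.96, limma adjusted p = 0.0151), so its direction depends on the probe. Slc32a1, the vesicular transporter for GABA, differed by 8.01 in congenic mice (limma adjusted p = 3.86e-06). Syn2 and Syn1, synapsins of the vesicle surface, differed by 5.10 (limma adjusted p = 4.04e-05) and 6.33 (limma adjusted p = 0.000135). The congenic muscle values of Syn1, 7.75, 8.51 and 7.97, lie about the 20th percentile of 8.02, so the size of its difference depends on where background lies. The median over the list was 3.22 in congenic mice, beside 1.44 over the 7 measured pump members other than Atp6v0e and -0.220 over all probes. In wild type mice these medians were 2.36, -0.269 and -0.147 with all arrays, and 3.49, 1.72 and -0.253 without array 1. The sign of the pump median in wild type mice thus turned on that array.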

How the data were processed

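RNA of 12 tissue samples was labelled with digoxigenin and detected by chemiluminescence on one-colour arrays, per the labels' protocols. The authors deposited 1 value per probe and array, taken as log2 intensities. The base was inferred from the range of 5.35 to 21.13. The sources used here do not give the software, background correction or detection calls. The 6 arrays of a tissue shared 1 distribution. Groups came from the titles, since the description names the congenic strain for every sample.

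Probes were named from the platform annotation: 14411 had 1 symbol (14402 matched the GRCm38.p6 gene table), 247 several and 18354 none. Models were fitted to all 33012 probes with limma 3.58.1 (R 4.3.3; lmFit, then eBayes with trend), and a probe was called at a Benjamini-Hochberg adjusted p under 0.05. Strain was tested in each tissue alone, tissue and interaction over 12 arrays. Fits were checked on simulated data with independent normal noise. These held no outlying array, so the check does not cover an array such as wild type hypothalamus array 1. A gene outside the pump was its brightest probe. Genes named are all members and measured subunits, from each other list at most 4 passing genes (otherwise up to 2 by smallest p), 5 neighbours a side and the 5 most alike. The members and lists were chosen with earlier results of these data known. Alternatives were dim probes left out, a floor, no trend, array weights, joint scaling, other arrays in the fit, a replicate block and each array left out. Same-numbered arrays deviated together with correlations of -0.129 to 0.138, and the main fits did not pair tissues or strains. Such correlations cannot show whether a mouse gave both tissues.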

Additional observations from a re-analysis of the deposited data

How the results depend on the processing

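Of 1598 values under other settings, 1439 counted as unchanged, 76 passed where they had not, 27 no longer passed, 16 moved and 40 changed sign. For tested differences, unchanged meant the same direction and side of the threshold, and for counts a similar number. For descriptive values (muscle strain differences, Atp6v0e tissue and strain by tissue terms) it meant a shift under the group SD, whatever the threshold. Atp6v0e in muscle ran from 1.709 to 1.981 with 1 array left out, at limma adjusted p of 0.00947 to 0.177. Changes of sign in muscle were not counted, as for Atp6v0d1, which went from 0.228 to -0.037. Only 3 arrays a group limit the precision, and there were no detection calls to set low values apart from background. The number of members that passed in muscle, 1, became 0 with a floor at the 20th percentile, without the trend and with all 12 arrays in the fit. Of all 33012 probes those fits called 2, 2 and 1. The number of members is followed here with 1 array left out. It ran from 0 to 1 with 1 array left out, and was 0 when congenic array 1 or congenic array 2 was dropped, and likewise for wild type arrays 2 and 3. The replicate block left it at 1 and the Atp6v0e difference at 1.80, and changed the count of members called in no comparison. Whether the numbers pair the samples is not stated in the labels, and the same-number correlations (-0.129 to 0.138) cannot show it. The causes were not tested.

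In hypothalamus the strain difference of Atp6v0e was 0.27 with array weights, 0.525 without wild type array 1 and congenic array 3 (a choice made after seeing the data), and -0.242 to 0.403 with 1 array left out. In the same 2 fits Atp6v0d1 gave -0.329 and -0.703, Atp6v1a -0.074 and -0.179, Atp6v1c1 -0.445 and -0.63, Atp6v1d -0.016 and -0.312, Atp6v1e1 -0.698 and -1.077, and Atp6v1h -0.241 and -0.516. With 1 array left out Atp6v0d1 ran from -0.208 to 3.905, Atp6v1a from -0.031 to 0.443, Atp6v1c1 from -0.271 to 0.894, Atp6v1e1 from -0.822 to 4.109 and Atp6v1h from -0.39 to 3.675.

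For tissue, 5 of the 7 members other than Atp6v0e passed in congenic mice with array weights, beside 10359 of 33012 probes. With the arrays of that strain alone 5 passed, beside 8769 probes, and with joint quantile normalization 2, beside 5607. With 1 array left out 1 to 5 passed, beside 4511 to 10546 probes. In wild type mice 7 passed with array weights, beside 13140 probes, and 2 to 7 with 1 array left out, beside 4320 to 9944. The main fits called 6088 probes in congenic and 6335 in wild type mice. Under joint quantile normalization Atp6v0e differed by -2.209 in congenic and -0.514 in wild type mice. Atp6v1b2 in congenic mice ran from -2.355 to 0.222 with 1 array left out. In wild type mice Atp6v0d1 gave 2.212 with array weights, 0.094 with joint quantile normalization and -1.802 to 2.311 with 1 array left out. Atp6v1d gave 0.862, 0.407 and -0.931 to 0.954. Atp6v1e1 gave 1.346 with array weights and -3.34 to 1.591 with 1 array left out. With 1 array left out Atp6ap2 ran from -0.677 to 1.6, Gaa from -1.645 to 3.724, Lamtor3 from -0.391 to 0.987 and Mtor from -1.256 to 0.768. Array weights gave -0.527 for Lamtor3 and -1.239 for Mtor.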
